A study of Mus musculus with 4 samples.

Results

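The genes described here encode 6 proteins of paraspeckles, Nono, Sfpq, Pspc1, Matr3, Tardbp and Rbm14, together with the long noncoding RNAs Neat1 and Malat1. They were chosen by symbol, with no threshold on a measured value, though with earlier results of these data known, and they are 8 of the 24421 rows of the count matrix. All 8 passed the filter on low counts. They were read in 4 B16F10 libraries. B16F10 is a melanoma line of C57BL/6 mouse origin, grown here in culture. All cells had been transduced with lentivirus and selected with puromycin. In 2 libraries (shControl) the cells stably expressed a control vector, and in 2 (shLmna) they stably expressed a short hairpin RNA targeting Lmna, which encodes lamins A and C of the nuclear lamina. The comparison asks which transcripts differ in abundance once lamin A/C is reduced. The labels name no separate cultures or transductions for the replicates, so the p-values measure the spread between these libraries, which may be technical. A single hairpin was used, and other effects of that hairpin or of the transduced line cannot be told apart from the loss of lamin A/C.

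Paraspeckles are nuclear bodies that assemble around Neat1, which serves as their scaffold. Nono, Sfpq and Pspc1 form the DBHS family, RNA-binding proteins that pair with each other as dimers and coat the Neat1 transcript. Malat1 is made from the gene next to Neat1 and accumulates in nuclear speckles, the neighbouring bodies that store splicing factors. Neat1 is made as a short form with an ordinary poly(A) tail and as a long form, and only the long form builds paraspeckles. The long form and Malat1 are not polyadenylated in the usual way. Their 3′ ends are cut by RNase P and protected by a triple helix, in which a genome-encoded run of A folds back onto U-rich stretches.

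The libraries were made by bulk MARS-seq, which captures RNA by its poly(A) stretch and counts 3′ ends, and the ends of the 2 noncoding RNAs are therefore shown first, from GENCODE transcripts on the GRCm38 build, as the RNA strand written in DNA letters. Capitals mark each run of at least 10 bases that the last 400 bases of the 2 transcripts share. The Malat1 stretch lies at chr19:5795962-5796075 on the minus strand, 272 bases before the annotated end of the transcript. The Neat1 stretch lies at chr19:5824708-5824807 on the minus strand and ends with the annotated long transcript.
Malat1: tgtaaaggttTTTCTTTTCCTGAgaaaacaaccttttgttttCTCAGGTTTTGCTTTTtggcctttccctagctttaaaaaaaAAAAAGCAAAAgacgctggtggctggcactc
Neat1: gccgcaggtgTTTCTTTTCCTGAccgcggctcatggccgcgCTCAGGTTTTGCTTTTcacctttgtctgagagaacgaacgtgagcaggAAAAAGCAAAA
Both RNAs held the same 3 runs in the same order, of 13, 16 and 11 bases. The first and second are rich in T (U in the RNA) and the third is rich in A. In Malat1 the A-rich run continues upstream, to a stretch of 12 A in a row, whereas the longest stretch of A in the last 1000 bases of long Neat1 was 5. The counts do not tell which A stretch or tail was captured, and they do not separate the short and long forms of Neat1. Both genes have a single exon in these transcripts and lie 22 kb apart.

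Lmna, the target of the hairpin, was read first as a check of the labels. Its 2826 (shControl 1) and 2684 (shControl 2) counts stood against 331 (shLmna 1) and 480 (shLmna 2). Its log2 fold change was -2.61 (SE 0.142, adjusted p = 7.93e-06), a 6.09-fold reduction, in edgeR's quasi-likelihood test with Benjamini-Hochberg adjustment over the 9150 genes tested, which gave every adjusted p in this section unless another test is named. Library totals were 2494880 to 3808843 counts. Of the 6 melanocyte markers, Mlana, Pmel, Dct, Mitf and Sox10 were abundant in every library, while Tyr had 1 to 7 counts. The summed markers of fibroblasts, endothelium, immune cells and epithelium lay between 0 and 16.4 CPM in every library, where CPM are counts scaled to a common library size.

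Calls required an adjusted p under 0.05, a log2 fold change beyond 1 in either direction and a mean normalized count over 5. By this rule 3 of the 8 genes were lower in shLmna (Matr3, Nono and Sfpq) and 0 were higher. Over all tested genes 5.88% were called lower and 1.76% were called higher. At an unadjusted p below 0.05 the test passed 5 of the 8, the same 3 with Malat1 lower and Tardbp higher, against 30.1% of all tested genes. The median log2 fold change of the 8 was -0.39, and that of all tested genes was 0.00. Both shLmna libraries lay below both shControl libraries for 4 of the 8 genes and above them for 2. Over all tested genes these shares were 30.6% and 29.5%, so such separation of 2 against 2 libraries is common. In bulk RNA, fewer transcripts per cell and fewer cells expressing a transcript cannot be told apart.

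**Figure D1:**
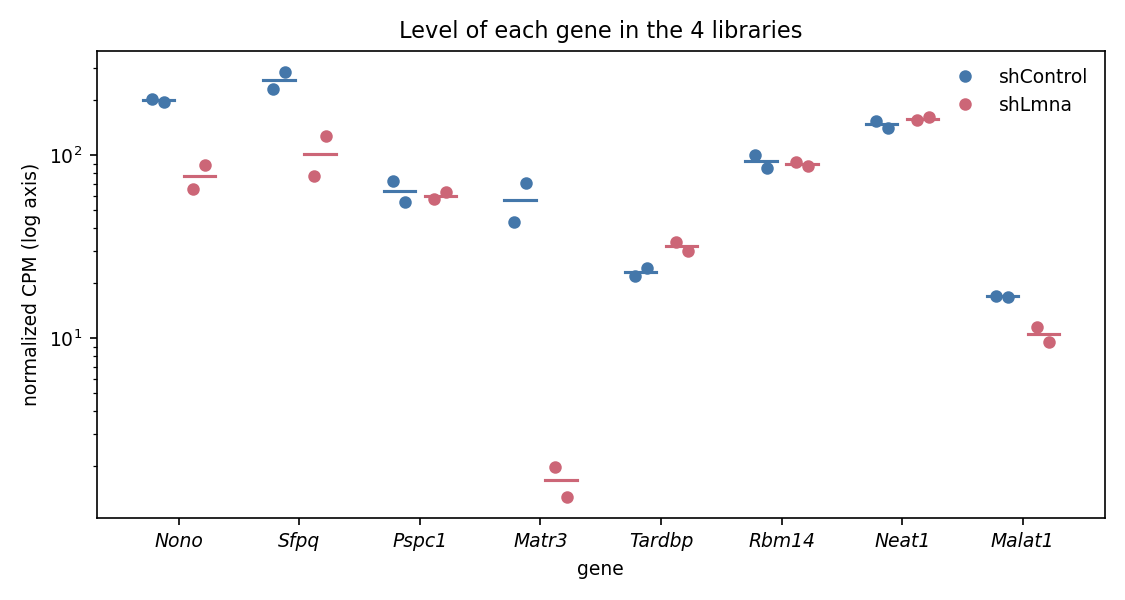
Normalized CPM (log axis) of the 8 genes in each library; points are libraries and horizontal lines are group means (n = 2 per group). Nono, Sfpq and Matr3 are lower in both shLmna libraries, with Matr3 at 1.98 and 1.36 CPM, while the groups overlap for Pspc1 and Rbm14.

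Of the 3 DBHS genes, Nono and Sfpq fell and Pspc1 did not pass the test. Nono, which binds RNA and DNA and takes part in transcription, splicing and DNA repair, lies at chrX:101429318-101448591 on the plus strand. It had 203 and 197 CPM in shControl 1 and 2 and 65.7 and 88.3 CPM in shLmna 1 and 2. Both shLmna libraries were below both shControl libraries. The mean fell from 200.4 ± 4.37 to 77 ± 16 CPM (SD, n = 2 each), with a log2 fold change of -1.37 (SE 0.153, adjusted p = 0.000339). Of the 31-base words in the last 1000 bases of Nono, 8.45% also occur in 3 other genes, so part of its reads could be shared with them.

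Sfpq, a splicing factor that dimerizes with Nono, lies at chr4:127021324-127037013 on the plus strand. It had 232 and 286 CPM in shControl and 77.5 and 127 CPM in shLmna, so the groups did not overlap. The shLmna libraries differed from each other more than for Nono. The log2 fold change was -1.33 (SE 0.206, adjusted p = 0.00231), with means of 259 ± 38.6 and 102 ± 34.8 CPM (SD, n = 2 each).

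Pspc1, the third member of the family, lies at chr14:56720710-56778316 on the minus strand. It had 72.8 and 55.7 CPM in shControl and 57.7 and 62.7 CPM in shLmna. Both shLmna values lay between the shControl values. The log2 fold change was -0.09 (95% interval -0.46 to 0.29, adjusted p = 0.779), so the interval holds changes from 27.3% lower to 22.1% higher.

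The counts of the 3 genes were also compared with each other in each library. Pspc1 made up 14.3% of the summed counts of the 3 genes in shControl 1 (95% Wilson interval 12.7 to 16.1%) and 10.3% in shControl 2 (9.07 to 11.7%). Its share was 28.7% in shLmna 1 (25 to 32.8%) and 22.6% in shLmna 2 (20.1 to 25.2%). The intervals of the groups did not overlap, but they cover counting error only. The mean ratio of Pspc1 to Nono counts was 0.32 in shControl and 0.795 in shLmna, and that of Pspc1 to Sfpq was 0.254 and 0.62. The ratio of Nono to Sfpq was 0.878 and 0.689 in shControl and 0.847 and 0.697 in shLmna, and these ranges overlapped. With 2 libraries against 2, the two-sided exact permutation test cannot give a p below 0.333, which is the value it gave for both Pspc1 ratios. Together the 3 genes reached 508 and 539 CPM with the control vector, against 201 and 278 CPM with the hairpin.

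**Figure D2:**
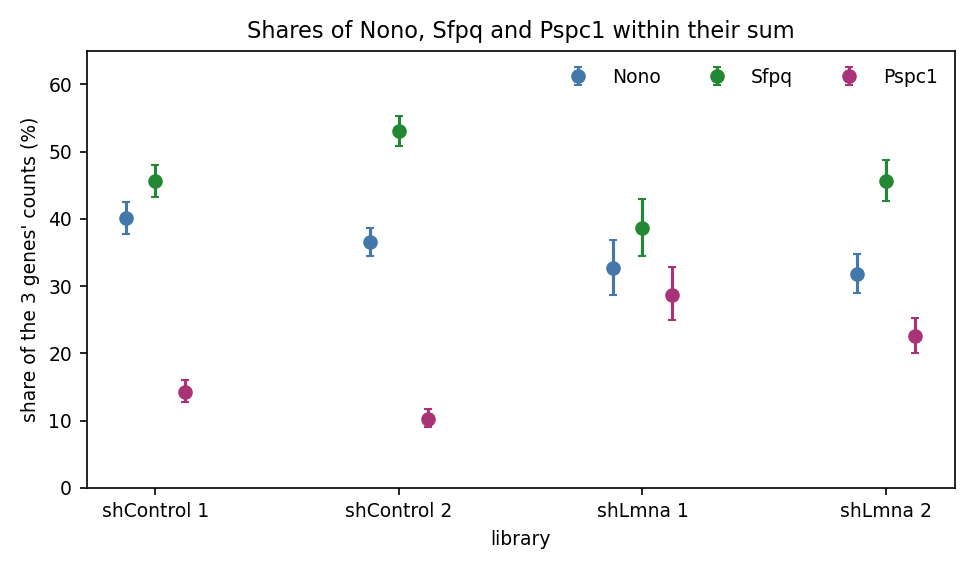
Share of each DBHS gene in the summed counts of Nono, Sfpq and Pspc1, in percent, by library; bars are 95% Wilson intervals for counting error. The Pspc1 share is 10.3% and 14.3% in shControl and 22.6% and 28.7% in shLmna.

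The promoters of the 3 DBHS genes are shown because Nono and Sfpq fell together and Pspc1 did not pass the test. They are RefSeq sequences on GRCm38.p6, from 250 bases before to 50 bases after the annotated start, and capitals mark CCAAT on either strand. Nono is at chrX:101429401-101429700 (plus strand), Sfpq at chr4:127021051-127021350 (plus strand) and Pspc1 at chr14:56778269-56778568 (minus strand).
Nono: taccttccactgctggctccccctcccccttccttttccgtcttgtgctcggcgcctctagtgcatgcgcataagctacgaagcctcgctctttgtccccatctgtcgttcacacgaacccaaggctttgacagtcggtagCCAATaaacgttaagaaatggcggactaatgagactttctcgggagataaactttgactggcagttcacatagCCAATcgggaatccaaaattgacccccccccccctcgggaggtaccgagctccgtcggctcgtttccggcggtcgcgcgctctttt
Sfpq: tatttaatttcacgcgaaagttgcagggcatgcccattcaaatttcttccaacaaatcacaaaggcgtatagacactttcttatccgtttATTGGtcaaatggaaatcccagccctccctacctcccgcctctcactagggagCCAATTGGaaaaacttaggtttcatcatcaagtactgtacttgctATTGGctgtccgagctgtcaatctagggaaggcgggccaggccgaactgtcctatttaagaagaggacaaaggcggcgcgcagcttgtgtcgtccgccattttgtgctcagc
Pspc1: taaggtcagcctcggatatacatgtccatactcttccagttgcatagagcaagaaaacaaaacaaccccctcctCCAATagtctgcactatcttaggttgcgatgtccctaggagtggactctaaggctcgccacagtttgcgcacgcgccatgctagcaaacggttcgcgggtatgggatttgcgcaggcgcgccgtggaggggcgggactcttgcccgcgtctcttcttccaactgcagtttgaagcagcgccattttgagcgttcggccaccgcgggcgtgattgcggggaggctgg
Both strands of the promoters were searched for 9 motifs. These were the TATA box (TATAAA), the CCAAT box (CCAAT), the GC box (GGGCGG), the E-box (CACGTG), the cAMP response element (TGACGTCA), the YY1 motifs (AAGATGG and GCCATNTTG), the ETS motif (CCGGAAG) and the palindromic NRF1 motif. Among them AAGATGG and GCCATNTTG can overlap. The promoter table matched 6 of the 8 genes (Nono, Sfpq, Pspc1, Tardbp, Rbm14 and Malat1). CCAAT occurred in Nono, Sfpq, Pspc1 and Rbm14, and in 37.4% of all 32851 promoters. It matched at 2 positions in Nono, 4 in Sfpq and 1 in Pspc1. The Sfpq matches at 107 and 104 bases before the start overlap on opposite strands, in the single stretch CCAATTGG. GGGCGG occurred in Pspc1 and Tardbp (35.7% of all promoters) and GCCATNTTG in Sfpq and Pspc1 (2.51% of all promoters). The other 6 motifs matched none of the 6 windows, and they occurred in 1% (NRF1 motif) to 13.6% (TATAAA) of all promoters. Of the 3 DBHS promoters, GGGCGG was matched only in that of Pspc1.

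Matr3, which encodes matrin 3, an RNA-binding protein of the nuclear matrix that interacts with Sfpq, showed the largest fold change of the 8 genes. Its counts reached 140 (shControl 1) and 265 (shControl 2), but only 5 in each shLmna library. The exact Poisson interval of 5 counts is 1.62 to 11.7, for counting error alone, and includes the floor of 3 counts taken as the limit of detection. In normalized units the values were 43.4 and 70.9 CPM in shControl and 1.98 and 1.36 CPM in shLmna. This amounts to a log2 fold change of -5.11 (SE 0.385, adjusted p = 2.64e-05), and Matr3 ranked 62 of 9150 from the most reduced. Its level in shLmna was 2.92% of that in shControl. The gene lies at chr18:35562138-35593835 on the plus strand. After correction for base composition, described further on, its log2 fold change was -4.94 or -3.11, depending on where the transcript end was set.

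Tardbp, which encodes TDP-43, a regulator of splicing and RNA stability, lies at chr4:148612382-148627019 on the minus strand. It had 22 and 24.1 CPM in shControl and 33.6 and 30.0 CPM in shLmna. Both shLmna libraries were above both shControl libraries, but the change did not pass the adjusted test (log2 fold change 0.46, SE 0.203, adjusted p = 0.163). Rbm14, a coactivator needed for paraspeckle formation, lies at chr19:4800569-4811634 on the minus strand, 984 kb from Malat1. It had 101 and 85.7 CPM in shControl and 92.6 and 87.7 CPM in shLmna, values that overlapped. Its log2 fold change was -0.05 (95% interval -0.36 to 0.26, adjusted p = 0.858).

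Neat1, the scaffold RNA, did not pass the test. The gene, at chr19:5824708-5845478 on the minus strand, had 155 and 141 CPM in shControl and 156 and 163 CPM in shLmna. The shLmna values were slightly above both shControl values. Its log2 fold change was 0.11 (95% interval -0.16 to 0.38, adjusted p = 0.596), so the interval runs from 10.7% lower to 30.3% higher. Relative to Nono, the shControl libraries held 0.764 and 0.712 Neat1 counts for each count and the shLmna libraries 2.38 and 1.84. Relative to Sfpq, the shControl libraries held 0.671 and 0.491 and the shLmna libraries 2.02 and 1.28. The exact permutation p was 0.333 for both ratios, the smallest possible.

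Malat1, at chr19:5795690-5802672 on the minus strand, was counted at a low level for a transcript known to be abundant. The shControl libraries held 55 and 63 counts of it and the shLmna libraries 29 and 35, equal to 17 and 16.9 CPM against 11.5 and 9.54 CPM. Both shLmna libraries were below both shControl libraries. The log2 fold change of -0.70 (95% interval -1.26 to -0.14) did not pass the adjusted test (adjusted p = 0.0931). Malat1 to Neat1 ratios were 0.11 and 0.12 with the control vector and 0.0734 and 0.0586 with the hairpin (exact permutation p = 0.333). The 3′ ends shown above bear on both RNAs, and the part of capture in these values was not tested.

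As a description with no test, the tested genes nearest in pattern to Neat1, Malat1 and Matr3 were found by Euclidean distance. Patterns were log2 values of CPM plus 0.5, centred on each gene's mean over the 4 libraries. Nearest to Neat1 were Mrps24, Rasa3 and Dmxl2, at distances of 0.0135 to 0.0275. Nearest to Malat1 were Zfp385a, Tbc1d10b and Ehd1, at 0.031 to 0.0688. Nearest to Matr3 were Dhx15, an RNA helicase of splicing, Ect2, a regulator of cytokinesis, and Armcx1, at 0.282 to 0.34. Armcx1 had 11.2 and 15.8 CPM in shControl and 0.0 CPM in both shLmna libraries (log2 fold change -8.48). Its distance therefore depends on the added 0.5 CPM. Dhx15 had 129 and 169 CPM in shControl and 5.14 and 4.09 CPM in shLmna, with a log2 fold change of -5.03 (adjusted p = 6.28e-06).

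The wider set of proteins found in paraspeckles held 23 genes, of which 21 were tested. At an adjusted p below 0.05, 5 were lower and 0 higher, while 9.74% of all tested genes were lower and 5.48% were higher. An unadjusted p below 0.05 was found for 9 of the 21, against 30.1% of all tested genes. The median log2 fold change was -0.21. Nudt21, a subunit of the cleavage factor that sets 3′ end position and, with Cpsf6, Neat1 isoform choice, had 43.1 and 47.9 CPM in shControl and 9.1 and 13.6 CPM in shLmna (log2 fold change -1.97, adjusted p = 0.000523). Rbm7, an RNA-binding subunit of the nuclear exosome targeting complex, fell by 1.84 on the log2 scale (adjusted p = 0.000146). Hnrnpk, which binds RNA and is known to affect Neat1 3′ end processing, had a log2 fold change of -0.74 (adjusted p = 0.00462). Rbm12 and Ubap2l also passed, at -0.80 and -0.55. Nudt21 stayed past the adjusted test under all 13 alternatives, although 67.4% of the 31-base words at its RefSeq end occur in 4 other genes, so its reads could be shared. With the GC correction on GENCODE and RefSeq ends, Rbm7 was -0.50 and -0.46 and no longer passed, and Hnrnpk turned to 0.21 and 0.23, not past the test. Rbm12 and Ubap2l did not pass without shLmna 1 or without shLmna 2, and Hnrnpk did not pass without shLmna 1. Rbm12 also did not pass with DESeq2 (adjusted p = 0.147) or with the GC correction on GENCODE ends (-0.37). With RefSeq ends Rbm12 was -0.83 and passed. Hnrnpr and Cpsf6 were below the filter, with 0 to 2 counts per library. Among those that did not pass was Dazap1, an RNA-binding protein (-0.16, adjusted p = 0.414).

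Nuclear speckle proteins, the neighbours of Malat1 in the nucleus, were 16 genes with 14 tested. At an adjusted p below 0.05, 5 were lower and 0 higher (9.74% and 5.48% of all tested genes), and 6 had an unadjusted p below 0.05 (30.1% of all tested genes). The median log2 fold change was -0.28. The splicing factors Srsf3 and Srsf7 had log2 fold changes of -3.17 (adjusted p = 0.00139) and -3.16 (adjusted p = 0.000384). Srsf3 had 116 and 137 CPM in shControl and 2.77 and 22.9 CPM in shLmna, so its shLmna libraries stood far apart, and its log2 fold change was -2.46 without shLmna 1 and -5.48 without shLmna 2. Srsf2 had 204 and 223 CPM in shControl and 63.7 and 61.3 CPM in shLmna (log2 fold change -1.77, adjusted p = 2.49e-05). With the GC corrections Srsf2 was -0.84 and -0.82, still past the adjusted test but under the fold limit, and Srsf3 was -2.36 and -2.34 and Srsf7 -2.28 and -2.27. Pnn (-0.91) and Acin1 (-0.47) passed as well, but not when either shLmna library was left out. With the GC correction on GENCODE and RefSeq ends, Pnn reversed to 1.02 (adjusted p = 0.00184) and 1.08 (adjusted p = 0.00123), higher in shLmna, and Acin1 was -0.42 and -0.43, not past the test. With DESeq2, Srsf3 (adjusted p = 0.0864) and Acin1 (adjusted p = 0.164) did not pass. Acin1 also did not pass when edgeR scaled to library totals (adjusted p = 0.0585), and it failed under 7 of the 13 alternatives. Son, a scaffold of the speckle, had a log2 fold change of -0.43 (adjusted p = 0.0809), and Srrm1 stood at 0.00 (adjusted p = 0.991).

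Other long noncoding RNAs were poorly covered: of 12 genes, 11 had a row in the count matrix and 3 were tested. Snhg1, a host of small nucleolar RNAs, was higher (log2 fold change 0.78, adjusted p = 0.0152), but not without shLmna 2 (adjusted p = 0.18). Gas5, another host, stood at 0.14 (adjusted p = 0.476), and Firre, which organizes chromatin, at -0.72 (adjusted p = 0.0881). Around the Neat1 and Malat1 locus, 11 of 12 genes had a row in the count matrix and 8 were tested. At an adjusted p below 0.05, 1 was lower and 0 higher, against 9.74% and 5.48% of all tested genes. By the call rule with the fold limit 0 were lower. Fam89b, 66 kb from the locus, fell by 0.57 on the log2 scale (adjusted p = 0.0172), which did not pass when either shLmna library was left out. Of the 31-base words in its last 1000 bases, 99.9% also occur in 1 other gene, so nearly all its reads could be shared. Frmd8, at 4.22 kb the nearest, had a log2 fold change of -0.20 (adjusted p = 0.497). Of the untested genes in this list, Ssh3 lies 1.53e+03 kb away and is no near neighbour.

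**Figure D3:**
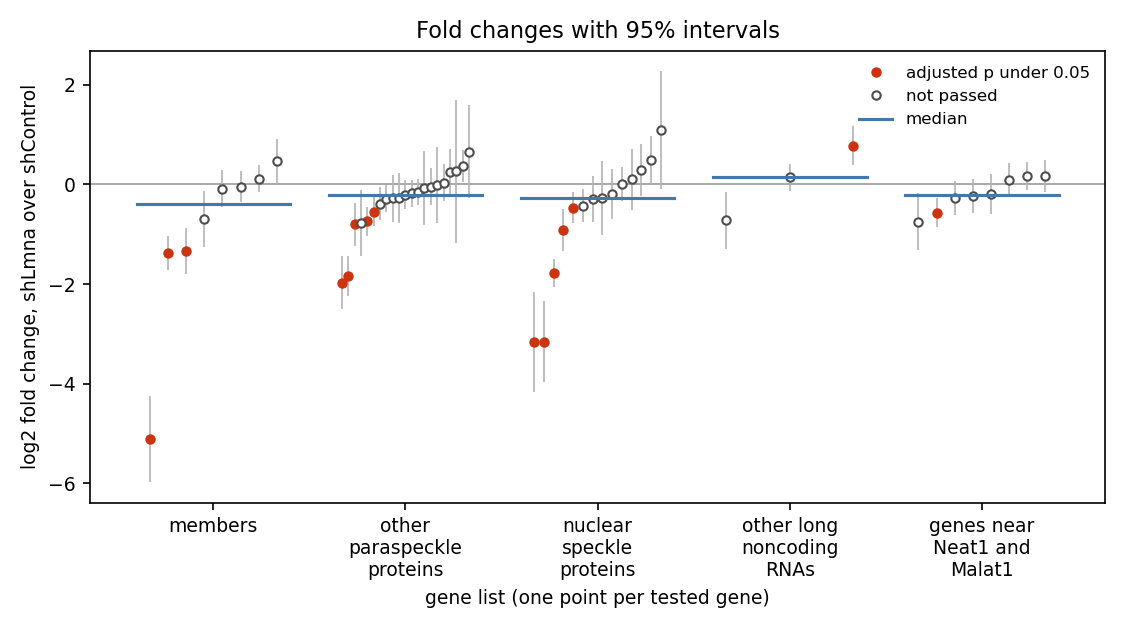
Log2 fold change of shLmna over shControl for every tested gene of each list, with 95% intervals from edgeR's fit; filled points have an adjusted p below 0.05 and blue lines are list medians. The passing genes are lower in every list but the other long noncoding RNAs, where Snhg1 is higher at 0.78.

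Base composition of the counted 3′ end moved with the calls across the transcriptome. The median GC content of the last 1000 bases was 47.2% over all tested genes and 41.2% over the 8, when ends were set to the RefSeq gene end. Of genes with at most 34% GC, 47.5% were called lower, against 1.65% of those above 50%. Matr3 had 30.4% GC, Sfpq 36.0%, Tardbp 37.9%, Pspc1 39.5%, Nono 42.9%, Malat1 44.1%, Rbm14 46.4% and Neat1 52.7%. With the longer GENCODE ends, Matr3 had 39.0% and Pspc1 32.3%, so the position of these 2 genes depends on the annotation.

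A correction for GC content was therefore read with both sets of ends. The GENCODE ends were used first, and the RefSeq ends, which the study's counting describes, were chosen after the first result had been seen. Nono was -1.41 with GENCODE ends and -1.42 with RefSeq ends. Sfpq was -0.66 and -0.65, each with an adjusted p below 0.05, and no longer met the fold limit, so 2 of the 8 genes were called lower in both. Of the 9150 tested genes, 411 were called lower with GENCODE ends and 406 with RefSeq ends, against 538 in the reported fit. Matr3 was -4.94 and -3.11, and was called in both. Pspc1 was 1.39 (adjusted p = 0.00362) with GENCODE ends and 0.01 (adjusted p = 0.971) with RefSeq ends, so its corrected fold change depends on the annotation. Tardbp was 0.76 (adjusted p = 0.0299) and 0.77 (adjusted p = 0.0287), past the adjusted test but under the fold limit. Neat1 was 0.15 and 0.14, and Malat1 -0.74 and -0.75, with neither past the test. The part of base composition in the reductions was not tested beyond these corrections.

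**Figure D4:**
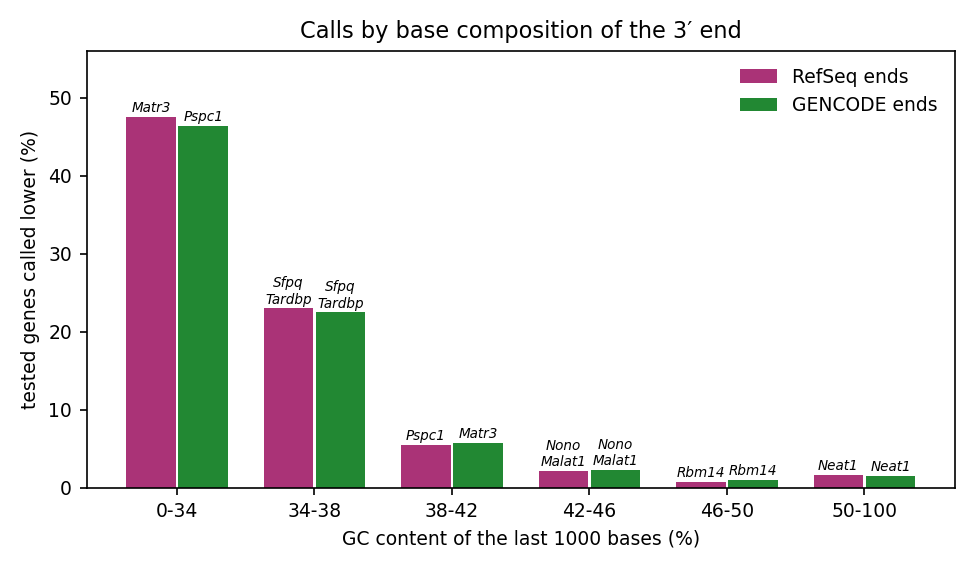
Percent of tested genes called lower in shLmna by GC content of the last 1000 bases, for ends taken from RefSeq or GENCODE, with the 8 genes named above their bins. The share falls from 47.5% in the lowest RefSeq bin to 1.65% in the highest, and Matr3 and Pspc1 change bins between annotations.

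The authors' batch-corrected log2 values gave smaller differences, -0.97 for Matr3, -0.71 for Sfpq and -0.66 for Nono. Each was past limma's adjusted test but under the fold limit, so 0 of the 8 genes were called there. Of the 10417 genes with such values, 28 were called lower and 2 higher. In the batch-corrected values Malat1 (-0.14, adjusted p = 0.0165) and Tardbp (0.12, adjusted p = 0.0302) also passed limma's adjusted test. That test made no allowance for the batch correction, so its p-values may be too small. The SE of Malat1 was 0.0224 there and 0.252 in the reported fit.

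**Figure D5:**
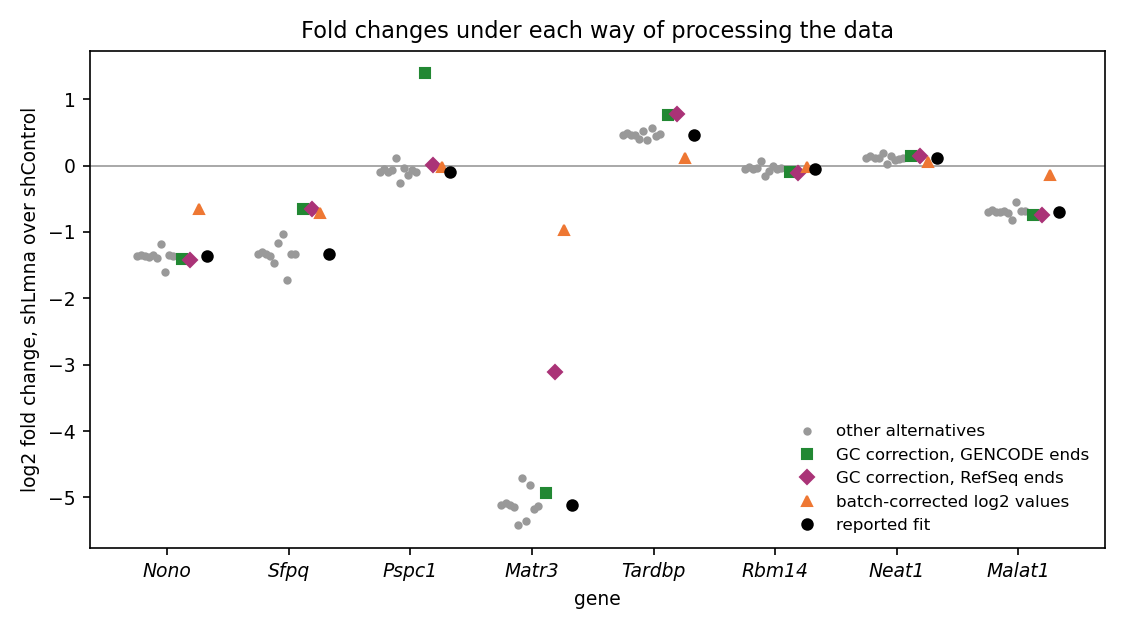
Log2 fold change of each of the 8 genes in the reported fit (black), with the GC correction using GENCODE (squares) or RefSeq (diamonds) ends, in the batch-corrected values (triangles) and under the other alternatives (grey). Nono, Sfpq and Matr3 stay below 0 in all of them, and Pspc1 reaches 1.39 with GENCODE ends. The batch-corrected values lie on another scale, so the size of their differences is not comparable with the others.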

How the data were processed

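Bulk MARS-seq libraries were deposited for 2 shControl and 2 shLmna samples, grouped by their titles. RNA was captured on oligo-dT beads. Per the labels and the study's methods, the authors trimmed reads (Cutadapt), aligned them to mm10 (STAR 2.4.2a) and assigned them (HTSeq) to the 3′ ends of RefSeq genes, a window of 1000 bases before the end and a shorter one after it. The authors deposited raw counts per gene symbol, used here. Reads carried unique molecular identifiers (UMIs), but whether these counts were made before or after UMI duplicates were collapsed is not stated, so counting intervals may be too narrow. They also deposited a signal table, in which counts are divided by size factors, and batch-corrected log2 values, with batches not named. The columns of that signal table with p-values, adjusted p-values and directions hold the authors' own comparison and were not used. Of the signal values, 100% were whole multiples of a step (tolerance 0.1 reads) where tested, so whole reads were recovered as an added alternative. The count matrix was 1.08 to 1.09 times these reads.

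Counts were tested with edgeR 4.0.16 (TMM scaling, default expression filter, quasi-likelihood F test, Benjamini-Hochberg adjustment over 9150 genes), with limma 3.58.1 and DESeq2 1.42.0 as alternatives. CPM use TMM-scaled library sizes. Standard errors are the fold change over the root of F. A floor of 3 counts equals 0.803 to 1.19 CPM per library, and it and the intervals of single counts or shares cover counting error only. The biological coefficient of variation was 0.126. On simulated data the test was checked for recovery of known changes. Named genes are the 8 genes, Lmna, list genes with an adjusted p below 0.05 and the 3 nearest patterns to Neat1, Malat1 and Matr3. Other named genes (Dazap1, Son, Srrm1, Gas5, Firre, Frmd8 and the untested ones) were chosen after their values were seen. Members and lists were chosen with earlier results of these data known. GC content came from the last 1000 bases of GENCODE vM21 transcripts, with a loess span of 0.3. Norad and Pcnx3 could not be analysed, because the count matrix held no row under these symbols.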

Additional observations from a re-analysis of the deposited data

How the results depend on the processing

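The 2 libraries per group limit every error estimate, and transcripts near 5 counts cannot be sized closely. Nono, Sfpq and Matr3 kept their direction and an adjusted p below 0.05 under all 13 alternatives, as did Lmna, but Sfpq fell under the fold limit with both GC corrections and all 3 did with batch-corrected values. With batch-corrected log2 values, 28 genes were called lower and 2 higher, 0 of the 8 lower, and the adjusted test passed 9 lower and 2 higher other paraspeckle proteins, 2 higher nuclear speckle proteins, 2 lower other long noncoding RNAs and 5 lower neighbours, with Tardbp at 0.12 and Malat1 at -0.14. The cause of the smaller differences in the batch-corrected values was not tested, and the fold limit does not mean the same on their scale. For the alternatives in this section, the share of all tested genes past the adjusted test is not given. Their list counts are of genes with an adjusted p below 0.05, without the fold limit, and therefore stand without a background. The reported fit called 161 genes higher. With the GC correction, 428 genes were called higher on GENCODE ends and 432 on RefSeq ends, chosen after the former was seen. On GENCODE ends 1 of the 8 was called higher, Pspc1, at 1.39 (0.01 with RefSeq ends). Tardbp passed the adjusted test at 0.76 (GENCODE ends) and 0.77 (RefSeq ends). Other paraspeckle proteins were 2 lower (3 with RefSeq ends) and 1 higher, nuclear speckle proteins 3 lower and 2 higher, and other long noncoding RNAs 2 higher with either set of ends. DESeq2 called 66 genes higher, and 3 nuclear speckle proteins were lower at its adjusted p below 0.05, without the fold limit. Without the filter, 1 other long noncoding RNA was lower and 1 nuclear speckle protein higher.

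Leaving out 1 library at a time changed several counts. Genes called higher were 60 to 232, with 71 without shLmna 1 and 60 without shLmna 2. Lower other paraspeckle proteins were 2 to 6 (2 without shLmna 1, 3 without shLmna 2), lower nuclear speckle proteins 3 to 7 (3 without either shLmna library) and higher ones 0 to 1. Lower other long noncoding RNAs were 0 to 2 (2 without shControl 1), higher ones 0 to 1 (0 without shLmna 2), and lower neighbours 0 to 1 (0 without either shLmna library). Pspc1 ran from -0.27 to 0.12 (0.12 without shControl 1) and Rbm14 from -0.16 to 0.07 (0.07 without shControl 1, 0.00 without shLmna 2), so neither has a fixed sign. The 3 genes called among the 8 were called without any 1 library.

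The same-numbered libraries did not deviate together (correlation 0.0106), so the numbers were not taken as pairs. With the replicate block, 605 genes were called lower and 209 higher, 3 of the 8 were called lower and 1 nuclear speckle protein was higher.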
